A study of Mus musculus with 15 samples.

Results

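The cytosolic ribosomal protein genes are the protein-coding genes named for the proteins of the large and the small subunit of the ribosome. They were chosen by name: a symbol made of Rpl or Rps, a number and at most a short suffix, together with Rpsa, Rplp0, Rplp1 and Rplp2. Of 26150 gene identifiers in the count table, 86 symbols had this form, 2 of these were annotated as pseudogenes, and 84 genes remained, 52 for the large and 32 for the small subunit. The rule itself used no measured value, but earlier results of these data were known when it was set. RNA sequencing counts were examined in 15 libraries of C57BL/6 mouse embryos. Dissected E15.5 cerebral cortex came from 3 Phf6+/Y controls and 5 Phf6-/Y embryos that carried a germline deletion of Phf6, an X-linked gene for a chromatin-associated protein. Cortical neurons of E16.5 embryos, cultured for a day, came from 3 Phf6+/Y;Nes-cre Tg/+ controls and from 4 embryos with the floxed allele and the same transgene (Phf6 lox/Y;Nes-cre Tg/+). All 7 neuron cultures carried the Nes-cre transgene, which expresses Cre recombinase from Nestin regulatory sequence in neural progenitors and their progeny, so that deletion there depends on Cre activity and leaves cells of other origin intact. Each cortex litter (litters 1 to 3) held 1 control and 1 or 2 deleted embryos, litters 4 to 6 held 1 control and 1 deleted culture each, and litter 7 held a deleted culture only.

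Ribosomal proteins assemble with ribosomal RNA into the 2 subunits of the cytosolic ribosome, which translates the mRNAs of the cell. Their own mRNAs are short and abundant, and they begin with a run of pyrimidines, the 5′ terminal oligopyrimidine tract, through which mTOR signalling and LARP1 control their translation together. Neural progenitors of the developing cortex need high ribosome production to grow and divide, and mammalian genomes hold many processed pseudogenes copied from these mRNAs.

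Total counts ranged from 16858007 to 31157700 over the 15 libraries, and the 84 genes held 0.543% to 0.790% of the counts of the genes analysed. Levels are given as CPM, counts relative to library size after TMM scaling of all 15 libraries together, or as RPKM, the same per kilobase of counted exon length. Phf6 itself, counted over the whole gene, was at 149 to 191 CPM in control and 42.4 to 55.2 CPM in Phf6-/Y cortices. In neuron cultures it was at 228 to 259 CPM in controls and at 59.9 to 85.8 CPM after deletion. The cultures were checked against their label by marker genes. The summed level of 8 neuronal markers was 9216 to 10482 CPM there against 4893 to 6929 CPM in the cortices, that of 10 radial glia and progenitor markers 604 to 949.6 against 2343 to 2945 CPM, and that of 7 endothelial and mural markers 6.60 to 11.97 against 173 to 358 CPM, with 1 of these 7 at 0 in every control culture. The neuronal sum hides opposite directions. Between the controls, 6 of its 8 markers were higher in neurons at FDR below 0.05 (edgeR). The other 2, Bcl11b and Tbr1, were lower at that threshold (log2 fold changes -1.11 and -0.47). All 6 interneuron markers were also lower in control neurons at that threshold.

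Annotated transcription starts were found for 64 of the 84 genes, 76 starts in all, in RefSeq sequence of build GRCm38.p6. A run of at least 8 consecutive C or T bases lay between 20 bases before and 30 bases after the start at 36 of the 76 starts (47.4%), against 19.0% of the 32851 starts of all genes. In the 300 bases from 250 before to 50 after the start, searched on both strands, the letters CCGGAAG, the core of ETS factor sites, were present at 27 starts (35.5%, all genes 8.86%) and the letters AAGATGG, the core bound by YY1, at 12 (15.8%, all genes 6.34%). The Sp1 box GGGCGG was at 45 (59.2%, all genes 35.7%), the MYC-family E-box CACGTG at 8 (10.5%, all genes 7.15%) and TATAAA at 8 (10.5%, all genes 13.6%). The first motif ends with the letters that begin the second, so 1 stretch can hold both. Starts of the same gene overlap, and a match is not a measured binding site. The 40 bases before and 20 after the start are shown for 11 genes named with values below that have a single start in the RefSeq table, with the longest pyrimidine run of the window in capitals.
Rps3, chr7:99483690-99483749, minus strand: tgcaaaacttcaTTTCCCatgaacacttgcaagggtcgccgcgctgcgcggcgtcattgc
Rplp0, chr5:115559427-115559486, plus strand: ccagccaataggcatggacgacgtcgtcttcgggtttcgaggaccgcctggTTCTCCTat
Rps26, chr10:128626487-128626546, minus strand: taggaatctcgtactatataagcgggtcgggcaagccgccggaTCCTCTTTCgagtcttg
Rps15a, chr7:118116128-118116187, minus strand: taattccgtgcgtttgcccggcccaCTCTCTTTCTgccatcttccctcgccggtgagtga
Rpl28, chr7:4792925-4792984, plus strand: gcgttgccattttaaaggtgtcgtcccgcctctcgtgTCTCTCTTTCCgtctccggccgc
Rpl15, chr14:18270967-18271026, minus strand: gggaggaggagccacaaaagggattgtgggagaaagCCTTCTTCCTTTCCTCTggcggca
Rps25, chr9:44407674-44407733, plus strand: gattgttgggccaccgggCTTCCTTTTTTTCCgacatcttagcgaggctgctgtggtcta
Rpl22l1, chr3:28805468-28805527, plus strand: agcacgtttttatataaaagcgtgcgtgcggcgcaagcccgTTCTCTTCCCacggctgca
Rps3a1, chr3:86142649-86142708, minus strand: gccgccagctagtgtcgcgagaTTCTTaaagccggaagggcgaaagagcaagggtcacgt
Rps7, chr12:28635934-28635993, minus strand: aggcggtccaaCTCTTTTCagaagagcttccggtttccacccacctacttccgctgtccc
Rpl37a, chr1:72711220-72711279, plus strand: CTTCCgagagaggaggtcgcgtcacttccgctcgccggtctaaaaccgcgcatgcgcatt
The runs were 17 bases long in Rpl15, 14 in Rps25, 11 in Rpl28, 10 in Rps15a and Rpl22l1, 9 in Rps26 and 8 in Rps7. They were 7 bases long in Rplp0, 6 in Rps3 and 5 in Rps3a1 and Rpl37a. The run did not always lie at the annotated start: in Rps3 it began 28, in Rps7 29 and in Rpl37a 40 bases before it. The run of Rps7 thus lay outside the stretch searched for the count above. In Rpl37a the marked run begins at the edge of the printed window, and a later run has the same length.

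The genes lay on 19 chromosomes, 4 of them on chromosome X, and 30 of them enclosed 58 annotated snoRNA genes in the same orientation. Their median counted length was 706.5 bases (range 328 to 5136) against 2197 bases over all genes analysed. For 83 of the 84, transcripts could be compared with those of all other annotated genes of GRCm38 in windows of 81 bases, the read length. The transcript compared was not always of the counted length, as for Rps20 (3706 against 502 counted bases) and Rpl12 (1242 against 638). For such genes the share can differ from that of the counted exons. Only 5 genes had no window in common with another gene, the median gene shared 47.5% of its windows, and 28 genes shared 60% or more. The level tracked this share. Among the tested genes, the median RPKM in control cortices was 212 for the 19 genes that shared under 25% of their windows, 54.8 for the 33 genes between 25% and 60%, and 17.3 for the 28 genes at 60% or more. In control neurons the 3 medians were 161, 56.9 and 17.6 RPKM. Over 80 genes the correlation of log2 RPKM with the shared percentage was -0.45 in the cortex (Pearson's r, Spearman's rho -0.48). These points come from the same libraries and differ in length and base composition. How reads that align to several places were counted is not given in the sources used here, and the part of shared sequence in the low levels of genes such as Rpl5 and Rpl10 was not tested. Levels of different members are not protein or transcript stoichiometry.

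**Figure D1:**
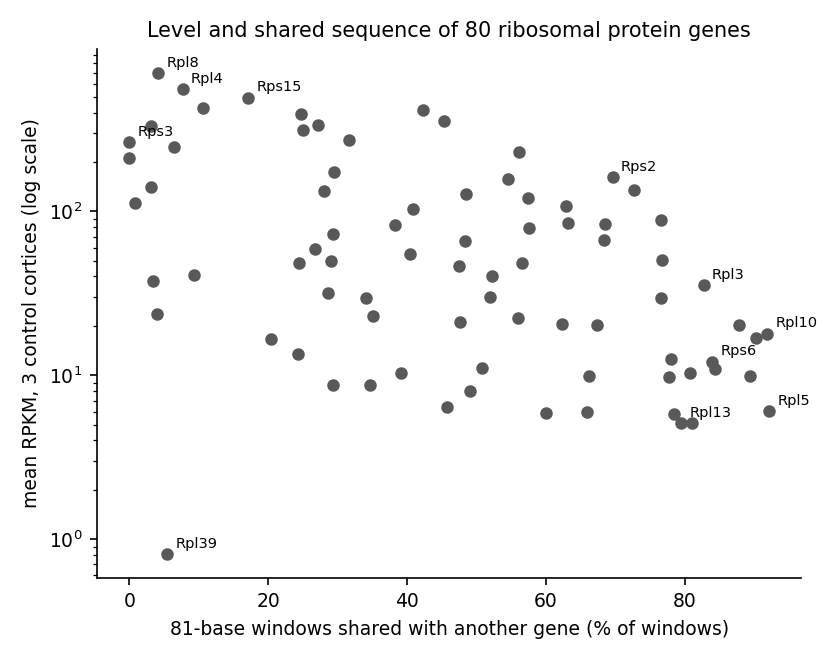
Mean RPKM of 80 ribosomal protein genes in the 3 control cortices (log axis) against the percentage of their 81-base windows that occur exactly in a transcript of another gene, with 1 point per gene. Rpl8, with 4.15% of windows shared, was the highest at 695 RPKM, and all 10 genes above 80% lay at or below 35.3 RPKM, while Rpl39 was low at 5.45%.

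By RPKM the order of the genes was nearly the same in both control tissues (Spearman's rho 0.99 over 81 genes, a description of pooled libraries). The highest were 3 genes that share little sequence. Rpl8 was at 695 ± 40.3 RPKM (SD, n = 3) in control cortices and 574 ± 57.8 in control neurons. Rpl4, whose introns encode snoRNAs, was at 556 ± 22.7 and 483 ± 33.0, and Rps15 in the cortex at 494 ± 37.6. In neurons the third place was held by Rplp1, an acidic stalk protein, at 401 ± 122 RPKM, which did not differ from Rps15 (374 ± 53.7) beyond their spread. At the low end, Rpl39 was at 0.813 ± 0.103 RPKM in cortices and 1.70 ± 0.159 in neurons, on 8 to 18 reads per control library. Rpl13 followed at 5.08 ± 2.12 and 3.42 ± 0.925, then Rpl23a in the cortex (5.13 ± 1.94) and Rpl31 in neurons (4.11 ± 1.09).

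Members with known roles outside the common ribosome spanned this range. The stalk protein gene Rplp0 was at 393 ± 16.7 RPKM in control cortices, its partner Rplp1 at 414 ± 27.0 and Rplp2 at 54.8 ± 2.47. Rpsa, which is also a laminin receptor, was at 82.2 ± 9.84 RPKM, and Rps6, the substrate of the S6 kinases downstream of mTOR, at 12.1 ± 2.09. Rpl5 and Rpl11, which bind MDM2 as a complex with 5S rRNA, were at 6.03 ± 0.656 and 12.6 ± 2.00. Rps19, the gene most often mutated in Diamond-Blackfan anaemia, was at 66.1 ± 0.708 RPKM. The X-linked Rpl10 and Rps4x were at 17.9 ± 0.144 and 126.6 ± 8.00, the ubiquitin fusion gene Rps27a at 9.82 ± 1.91, and Rpl10a and Rpl38, known for effects on the translation of particular mRNAs, at 29.6 ± 3.13 and 6.37 ± 1.44.

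Several members are duplicated copies of another. The paralogues Rpl3l, Rpl10l and Rpl39l, known from striated muscle and testis, were at or near 0: no library held more than 4 reads of any of them, and both Rpl10l and Rpl39l had 0 reads in all 3 control neuron libraries. These 3 genes did not pass the filter on low counts, which left 81 of the 84 genes in every test. Their parents Rpl3 and Rpl10 were at 35.3 ± 1.81 and 17.9 ± 0.144 RPKM in control cortices. Rpl22l1 and Rpl22, which encode interchangeable forms of the same large subunit protein, were both present. The ratio of Rpl22l1 to Rpl22 RPKM was 0.266 ± 0.0485 (SD, n = 3) in control and 0.295 ± 0.114 (n = 5) in Phf6-/Y cortices, and 0.399 ± 0.0670 (n = 3) and 0.383 ± 0.0643 (n = 4) in the corresponding neurons. The ratio was within the spread of the libraries between genotypes in both tissues. Rps27l was counted at 6.91 ± 0.836 times the RPKM of Rps27 in control cortices, where Rps27 shares 60.1% and Rps27l 9.31% of its windows. Rpl7l1 was at 0.107 ± 0.0171 of Rpl7. Rpl36a, on chromosome X, was at 10.8 RPKM.

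The main question was whether loss of Phf6 altered these genes in the E15.5 cortex. None of the 81 tested genes passed the FDR threshold of 0.05 (edgeR's quasi-likelihood test, litter in the model, Benjamini-Hochberg adjustment over 14750 genes), and limma-trend and DESeq2 also gave 0. Over all genes, 0.319% were called upregulated and 0.0678% downregulated. Below the threshold most members leaned one way: 65 of 81 had a negative log2 fold change, where 50.6% of all genes did. The median was -0.11 against -0.00 over all genes. At an unadjusted p below 0.05, 16 members (19.8%) were lower and 0 higher, beside 4.77% and 5.69% of all genes, and limma-trend gave 17 lower and DESeq2 14. The lean was alike in both subunits, with a median of -0.11 over 49 large and -0.11 over 32 small subunit genes. The standard errors ran from 0.06 to 0.50 with a median of 0.11, so a member's own difference was mostly about as large as its error. The share of counts held by the 84 genes showed the same order. It was 0.784%, 0.788% and 0.790% in the 3 control cortices and 0.751%, 0.691%, 0.681%, 0.757% and 0.691% in Phf6-/Y cortices 1 to 5, each below every control. In such whole-tissue samples, fewer cells of a type and less RNA per cell cannot be told apart.

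The 5 members of lowest p included Rps3, Rpl22 and Rplp0, and all 5 were lower than the litter control in each of the 5 Phf6-/Y cortices. They were picked by p from a fit with litter on these same libraries, so this direction is no separate evidence. Rps3, a small subunit protein that also acts in DNA repair, was at 478, 504 and 506 CPM in control cortices and at 442, 419, 436, 450.3 and 401 CPM in Phf6-/Y cortices. Every deleted library lay below every control. The log2 fold change was -0.21 (SE 0.06, unadjusted p = 0.00554, FDR = 0.233 by edgeR's quasi-likelihood test). No window of Rps3 is shared with another gene.

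Rplp0, the core of the ribosomal stalk that recruits elongation factors, was at 558, 513 and 533 CPM in controls and at 453, 479, 493, 483 and 458 CPM in Phf6-/Y cortices, again without overlap (log2 fold change -0.18, SE 0.06, edgeR FDR = 0.317). Rpl4 and Rpl36 also had every deleted library below the controls, at log2 fold changes of -0.15 and -0.23. In all 5 of 81 (6.17%) showed this separation, beside 2.55% of all genes. In the other direction it was shown by Rpl39 alone (2.47% of all genes), with 8 to 9 reads in each control and 13 to 20 in each deleted cortex.

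Rpl22 overlapped between the groups. It was at 213, 241 and 234 CPM in controls and at 185, 216, 209, 201 and 218 CPM in Phf6-/Y cortices (log2 fold change -0.19, SE 0.06, edgeR FDR = 0.279). The other members at an unadjusted p below 0.05 included Rpl3, Rpl4, Rpl7, Rpl7l1, Rpl13a, Rpl18, Rpl36, Rplp1, Rpsa, Rps3a1 and Rps19, all with log2 fold changes between -0.33 and -0.15. Among the members with known special roles, the values were -0.25 for Rplp2, -0.21 for Rpl10a, -0.17 for Rps27a, -0.11 for Rpl38, -0.09 for Rps4x, -0.07 for Rpl5, 0.01 for Rpl10, 0.06 for Rpl11 and 0.17 for Rps6, each with an unadjusted p above 0.05.

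**Figure D2:**
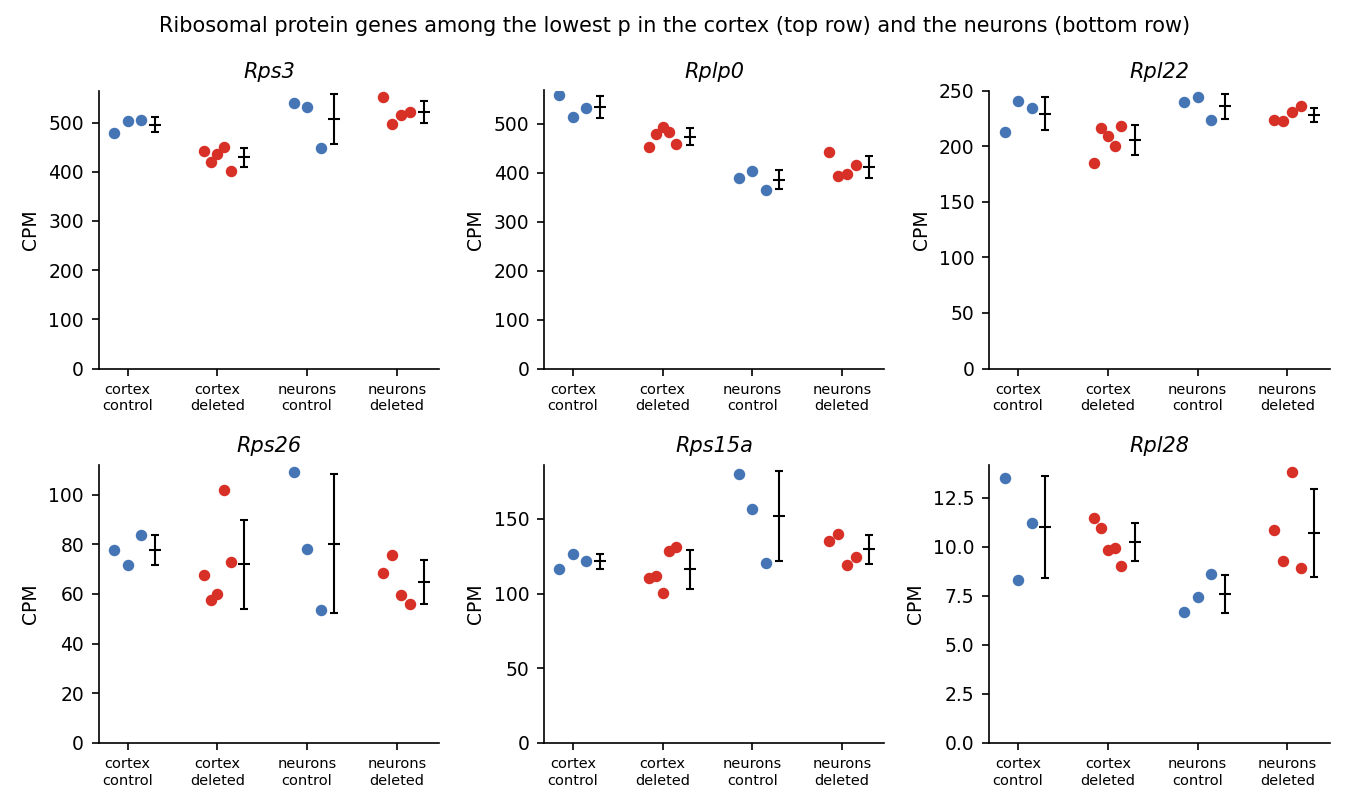
CPM of 6 ribosomal protein genes in every library of the 4 groups (blue points control, red points deleted, black bars mean ± SD beside the points). Rps3 and Rplp0 do not overlap between control and Phf6-/Y cortices, and the control neuron libraries of Rps26 spread from 53.5 to 109 CPM.

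Within litters the lean was present in each deleted cortex and its size varied. Set against the control of the same litter, 47 of 81 members (58.0%, all genes 49.9%) were lower in the Phf6-/Y cortex of litter 3 (median log2 difference -0.06). In litter 2, 59 (72.8%) and 60 (74.1%) were lower in its 2 deleted cortices (-0.15 and -0.21), beside 47.2% and 46.4% of all genes. In litter 1 it was 47 (58.0%) and 58 (71.6%), with medians of -0.05 and -0.14, beside 51.8% and 50.7% of all genes. Over all genes the corresponding medians lay between -0.01 and 0.02. Lower than the litter control in 5 of 5 deleted cortices were 10 members (12.3%), beside 8.72% of all genes, among them Rps3, Rps9, Rpl4, Rpl13a, Rpl18, Rpl22, Rpl36 and Rplp0. Higher in 5 of 5 was Rpl39 alone, beside 8.18% of all genes. Leaving out control 2 lowered the count at an unadjusted p below 0.05 to 6 (7.41%, all genes 4.02%), leaving out deleted cortex 2 likewise to 6 (all genes 2.46%), and leaving out deleted cortex 5 to 9 (11.1%, all genes 4.34%). With each library left out the median stayed between -0.15 and -0.08.

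Gene length moved with this lean. Among the other genes, the median log2 fold change in the cortex was -0.04 for the 998 genes under 1000 bases and -0.04 for the 3141 genes of 1000 to 2000 bases, -0.01 for 2000 to 4000 bases and 0.04 for the 4505 genes of 4000 bases or more. Of 116 other genes under 1000 bases at 50 CPM or more, 93 (80.2%) were negative with a median of -0.07, and 17 were lower and 1 higher at an unadjusted p below 0.05. Of the ribosomal protein genes 80.2% were negative, but these were limited neither by length nor by level, so the 2 shares come from unlike sets. Of the 998 other genes under 1000 bases at any level, 58.9% were negative. Members within the same limits of length and level were not counted separately. With the trend on gene length removed, 5 members (6.17%) instead of 16 were lower at an unadjusted p below 0.05, a share near the 5.08% of all genes in that fit. Still 60 of 81 members were negative there, beside 52.6% of all genes. Their median was -0.08 against -0.01 over all genes. Whether length has a part in the remaining difference was not tested. The members that share under 25% of their windows had a median of -0.12 (16 of 19 negative), those between 25% and 60% -0.15 (31 of 33 negative) and those at 60% or more -0.07 (17 of 28 negative).

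**Figure D3:**
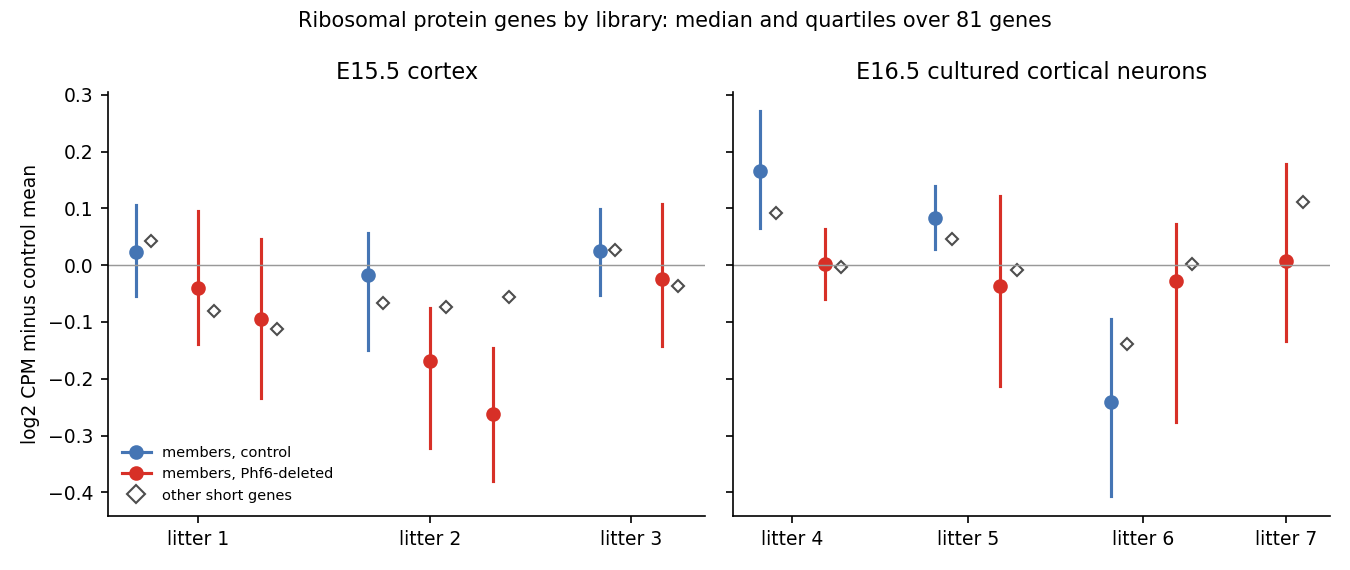
Median (circle) and quartiles (bar) over 81 ribosomal protein genes of log2 CPM minus the mean of the controls of that tissue, for each library ordered by litter. Diamonds give the median of the other genes under 1000 bases at 50 CPM or more. The circles of all 5 deleted cortices lie below those of the controls of their litters, and control neurons of litter 6 lie at -0.24, below every other culture.

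In E16.5 neurons the members' median was near 0, and litters differed in direction. None of the 81 genes passed the FDR threshold by edgeR, limma-trend or DESeq2 (over all 13909 genes, 0.194% upregulated and 0.0791% downregulated by edgeR). Of the 81, 50 were negative (all genes 49.7%) and 31 positive (all genes 50.3%), with a median of -0.04 against 0.00. At an unadjusted p below 0.05, 4 members were lower (4.94%) and 1 was higher (1.23%), beside 4.46% and 5.87% of all genes, and limma-trend gave the same counts and DESeq2 3 and 1. In litters 4 and 5 the deleted culture was below its control for 63 (77.8%) and 59 (72.8%) of 81 members, with median log2 differences of -0.13 and -0.11. Of all genes 49.0% and 51.0% were below. In litter 6 the deleted culture was above its control for 71 of 81 members and below for 10 (12.3%, all genes 49.5%), with a median difference of 0.18. The control of litter 6 stood apart: its members' median was -0.24 below the mean of the controls, and they held 0.543% of its counts against 0.680% and 0.701% in the other control cultures. The deleted cultures held 0.618% to 0.660%. In the same control library, the median of the other short genes at 50 CPM or more was -0.14 and that of the mitochondrial ribosomal protein genes -0.08. Its depth of 24898363 counts was between those of the other controls. The part of these values in the result was not tested.

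The result in neurons depended on which litter was left out. Without the control of litter 6, 11 members were lower and 1 was higher at FDR below 0.05, beside 1.13% and 2.38% of all genes, and the median was -0.12. Without the deleted culture of litter 6, 10 were lower (all genes 0.919%) and 0 higher (all genes 1.85%), with a median of -0.13. These 2 fits use the same 4 libraries for the contrast, since a litter without both genotypes adds nothing to it. Each contrast thus rests on 2 litter differences, each between 1 culture per genotype. Over all genes, calls at that FDR were 27 higher and 11 lower with every library in. They were 335 and 159 without the control, and 256 and 127 without the deleted culture. In both fits 10 members were called, among them Rps26, Rps15a, Rplp1, Rps19, Rps3a1, Rps9, Rpl26, Rpl19 and Rps24. Rpl28 was the member called higher in the first. Leaving out a library of litter 4 or 5 instead brought the median to between 0.02 and 0.04, with 0 members at FDR below 0.05. At an unadjusted p below 0.05, 6 were higher and 1 lower without the control of litter 4 (all genes 710 and 572 of 14059). Without its deleted culture 7 were higher and 0 lower (702 and 562 of 13782). For litter 5, 0 were higher and 1 lower without the control (460 and 373 of 14110) and without the deleted culture (446 and 377 of 13807).

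Rps26, a small subunit protein at the mRNA exit channel, had the lowest p in neurons. It was at 109, 78.1 and 53.5 CPM in the controls of litters 4, 5 and 6 and at 75.8, 59.6 and 56.0 CPM in the deleted cultures of the same litters, with 68.3 CPM in litter 7. The groups overlapped, with the deleted cultures lower in litters 4 and 5 and not in litter 6. The log2 fold change was -0.29 (SE 0.10, unadjusted p = 0.00828, edgeR FDR = 0.262). Rps15a was at 180 (179.9), 156 and 120.3 CPM in the controls and at 140.05, 119 and 125 CPM in their deleted littermates (log2 fold change -0.24, SE 0.08, edgeR FDR = 0.277). With the reads of its 6 named pseudogenes in the table added, the value for Rps15a was -0.15 (edgeR FDR = 0.458). Rps3a1 was at 107, 101 and 67.6 CPM against 85.4, 80.0 and 69.6, with a log2 fold change of -0.21 (SE 0.08, edgeR FDR = 0.36). All 3 genes show the same arrangement over litters. With no filter on low counts, which raised the number of genes tested to 18063, Rps26 and Rps15a passed the threshold (edgeR FDR = 0.0164 and 0.0301, where 0.659% of all genes were called downregulated).

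The members that share under 25% of their windows had a median of 0.02 in neurons (7 of 19 negative), those between 25% and 60% -0.09 (25 of 33 negative) and those at 60% or more -0.06 (17 of 28 negative). Among the members with known special roles none reached an unadjusted p of 0.05 in neurons. The log2 fold changes were -0.22 (SE 0.20) for Rpl11, -0.20 (SE 0.17) for Rps19, -0.20 (SE 0.33) for Rpl38, -0.16 (SE 0.12) for Rps6, -0.16 (SE 0.11) for Rplp1 and -0.15 (SE 0.14) for Rpl5. Near 0 or above it were Rpsa (-0.02, SE 0.07), Rplp0 (0.06, SE 0.06), Rps27a (0.06, SE 0.18) and Rpl10a (0.13, SE 0.10). Of the members of lowest p in the cortex, Rps3 was at 0.02 (SE 0.06) and Rpl22 at -0.04 (SE 0.06) in neurons. Rps19 spread widely over the control cultures, at 62.9, 48.5 and 22.2 CPM in the controls of litters 4, 5 and 6 and at 40.9, 37.9 and 30.4 CPM in their deleted littermates.

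Rpl28 and Rpl30, both large subunit proteins, kept 1 direction in all 3 litters. Rpl28 was at 6.68, 7.43 and 8.60 CPM in control neurons and at 9.28, 13.8 and 8.89 CPM in the deleted cultures of litters 4, 5 and 6, with 10.8 CPM in litter 7. All 4 deleted cultures lay above every control (log2 fold change 0.47, SE 0.18, edgeR FDR = 0.36). Of the 81 members only Rpl28 was separated in this direction, beside 3.61% of all genes, and 0 members in the other, beside 3.62%. Rpl30 was at 20.6, 14.3 and 9.65 CPM against 9.83, 13.7 and 8.55 CPM (log2 fold change -0.46, SE 0.18, edgeR FDR = 0.383). Without the control or without the deleted culture of litter 4 its log2 fold change was -0.12 and -0.11, so that most of its size came from this litter. With Rpl31 and Rpl22l1 it was 1 of 3 members (3.70%) lower in 3 of 3 litters, beside 15.7% of all genes, and 9 members (11.1%) were higher in all 3, beside 16% of all genes.

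**Figure D4:**
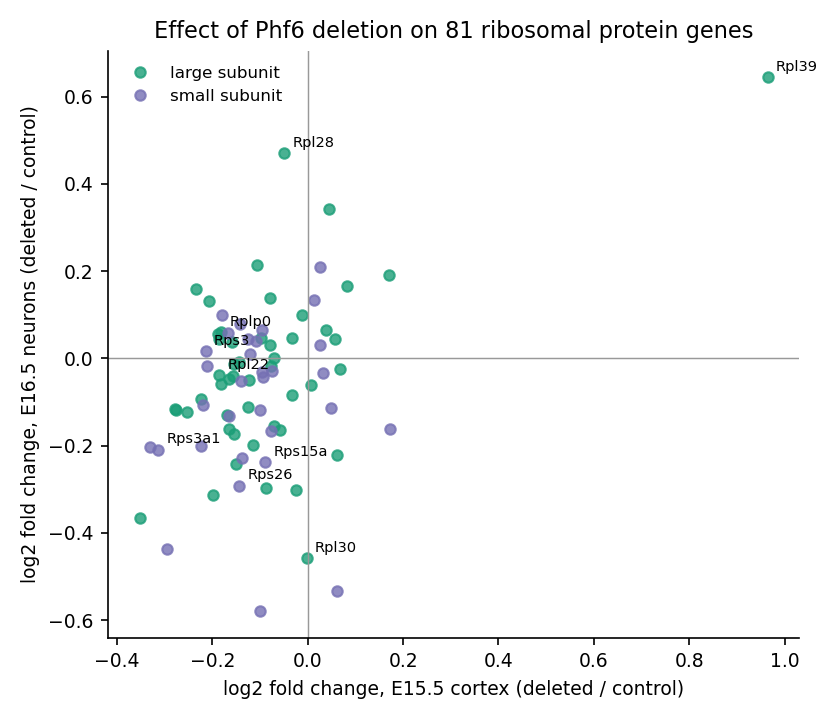
Log2 fold change of deleted against control in E16.5 neurons (vertical) against E15.5 cortex (horizontal) for 81 ribosomal protein genes, coloured by subunit. Most points lie left of 0 on the horizontal axis, where 65 of 81 were negative, and are spread on both sides of 0 on the vertical axis, where 50 were negative.

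Set side by side, 43 of 81 members were negative in both tissues, 22 in the cortex only, 7 in the neurons only and 9 in neither. The correlation of the 2 sets of log2 fold changes was 0.43 (Pearson's r) and 0.23 (Spearman's rho) over 81 genes, and 0.21 and 0.20 without Rpl39, which was at 0.96 (SE 0.50, unadjusted p = 0.0727) in the cortex and 0.64 (SE 0.49, unadjusted p = 0.205) in neurons. The difference of the genotype effect between the tissues was tested as an interaction over 15001 genes. It was below an FDR of 0.05 for 0 members by edgeR, limma-trend and DESeq2 (all genes by edgeR 0.00667% in each direction). At an unadjusted p below 0.05 it was positive, a higher log2 fold change in neurons, for 6 members (7.41%) and negative for 0, beside 2.27% and 2.92% of all genes. They included Rplp0, Rps3, Rpl13a, Rpl28 and Rpl10a. For Rplp0 the interaction was 0.24 (SE 0.09, unadjusted p = 0.0186, edgeR FDR = 0.907). Of the 81 genes 53 were positive and 28 negative, beside 49.1% and 50.9% of all genes, with a median of 0.07 against -0.00 over all genes. The median turned negative without cortex control 2 (-0.04), without control 3 of the neurons (-0.04) and without deleted culture 4 (-0.04). Stage, culture, the way Phf6 was deleted and the transgene differ with the tissue and cannot be told apart.

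Between the control tissues the members differed more clearly. Of 81 genes, 19 (23.5%) were lower and 4 (4.94%) were higher in control neurons than in control cortices at FDR below 0.05 (edgeR), beside 26.4% and 24.7% of all 14320 genes. The share of lower calls was near that of all genes, and that of higher calls below it. Of the 81, 47 were lower (all genes 52.2%) and 34 higher (all genes 47.8%), with a median of -0.07 and of -0.03 over all genes. Both groups are control libraries that also enter the genotype comparisons above. The neuron libraries lay below every cortex library for 19 members and above for 4 (all genes 31.6% and 28.9%). Among the 23 genes called, Rpl28, Rps10, Rps15a and Rpl22l1 overlapped.

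Rplp0 had the lowest p. It was at 558, 513 and 533 CPM in control cortices and at 389.7, 403 and 365 CPM in control neurons, with a log2 fold change of -0.47 (SE 0.08, edgeR FDR = 0.000174). The deleted cultures were at 442, 393, 398 and 416 CPM. The other stalk genes did not pass the threshold, with values of -0.05 (SE 0.21) for Rplp1 and 0.04 (SE 0.30) for Rplp2. Next among the lower members was Rps20, a small subunit head protein, at 122, 116 and 135 CPM in cortices and 90.2, 85.6 and 66.7 CPM in neurons (log2 fold change -0.63, SE 0.11, edgeR FDR = 0.000507). Rps7 (-0.52) and Rpl37a (-0.71) were also among the 5 lower members of lowest p, and both had an edgeR FDR below 0.005.

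Of the 4 members that were higher in neurons, Rpl15, a large subunit core protein, was at 88.1, 90.8 and 94.2 CPM in control cortices and at 126, 121 and 126 CPM in control neurons. The log2 fold change was 0.45 (SE 0.08, edgeR FDR = 0.000419). Rps25, known for its part in internal ribosome entry, was at 31.2, 28.3 and 36.2 CPM against 49.6, 47.3 and 38.6 CPM (0.50, SE 0.13, edgeR FDR = 0.00456). Rpl22l1 was at 11.6, 13.6 and 17.6 against 22.8, 26.4 and 17.2 CPM (0.63, SE 0.19, edgeR FDR = 0.0134), overlapping in 1 library, while its paralogue Rpl22 was at 0.04 (SE 0.08). Rps15a was at 0.32 (SE 0.12, edgeR FDR = 0.0494), and Rps24 came next at 0.33 (SE 0.13, edgeR FDR = 0.0532). Of the 23 genes called, 6 were called the same way under every alternative that was run: Rplp0, Rps20, Rps7, Rpl37a, Rpl15 and Rps25. Without control 3 of the neurons the counts were 7 lower and 12 higher, with a median of 0.04. Of all 14631 genes in that fit, 3256 were lower and 3274 higher. With library totals in place of TMM the members counted were 26 lower and 3 higher, beside 5003 lower and 2459 higher of 14320 genes. There the median of all genes moved to -0.17 and that of the members to -0.21.

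**Figure D5:**
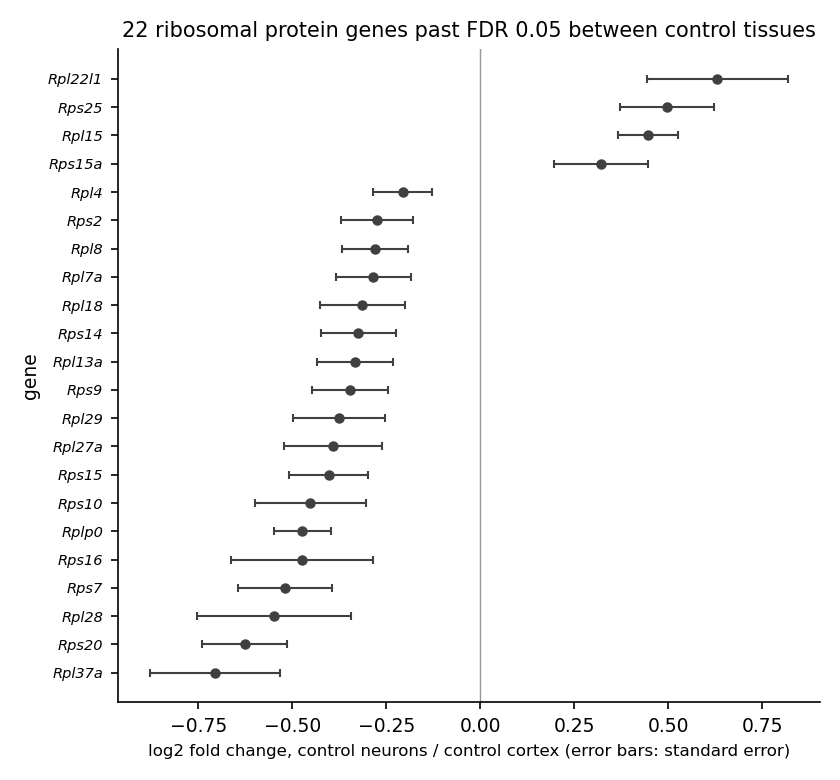
Log2 fold change, with its standard error, of control neurons against control cortex for 22 of the 23 ribosomal protein genes past an FDR of 0.05. The lower genes run from Rpl37a (-0.71) to Rpl4 (-0.21), and the 4 higher ones are Rpl22l1, Rps25, Rpl15 and Rps15a.

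Genes that act with the ribosomal proteins were counted beside them. None of these 5 lists held a gene past the FDR threshold in either genotype comparison by edgeR. Over all genes 50.6% were negative in the cortex and 49.7% in neurons, and at an unadjusted p below 0.05 4.77% and 4.46% were lower. The share negative in the cortex varied with length among genes other than the members. It was 58.9% under 1000 bases, 60.7% at 1000 to 2000, 53.2% at 2000 to 4000 and 37.6% at 4000 bases or more. The part of gene length in the values of these lists was not tested. Of the 4 ribosomal proteins outside the name rule (such as Fau, Rack1 and Rpl36al), 4 were negative in the cortex and 4 positive in neurons. Of 77 tested mitochondrial ribosomal protein genes, which serve translation in mitochondria, 63 (81.8%) were negative in the cortex (median -0.07), with 10 lower and 0 higher at an unadjusted p below 0.05, the lowest p being that of Mrps28 (-0.45, unadjusted p = 0.00449). In neurons 44 of the 77 were negative (median -0.02), with 0 at an unadjusted p below 0.05. Of 22 other genes with terminal oligopyrimidine mRNAs, chiefly translation factors and with 3 genes of the first list, 18 were negative in the cortex (median -0.06), led by the elongation factor genes Eef1b2 (-0.19, unadjusted p = 0.00726) and Eef1g (-0.16), and 8 in neurons (median 0.01).

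Of 32 genes of ribosome biogenesis and RNA polymerase I, 29 (90.6%, all genes 50.6%) were negative in the cortex (median -0.09), with 7 lower at an unadjusted p below 0.05, where 4.77% of all genes were. The lowest p were those of Nop53, a 60S assembly factor (-0.25, unadjusted p = 0.00294), and Rrp1 (-0.19), and Ubtf, which loads RNA polymerase I on ribosomal DNA, was at -0.18 (unadjusted p = 0.0185). In neurons 22 of 32 were negative (68.8%, all genes 49.7%, median -0.04), with 4 lower at an unadjusted p below 0.05 (all genes 4.46%), among them Bms1 (-0.21) and Ubtf (-0.15, unadjusted p = 0.0187). Of 16 upstream growth regulators such as mTOR and MYC, 9 were negative in the cortex (median -0.01), with 0 at an unadjusted p below 0.05. In neurons 7 were negative (median 0.03), with Rps6kb1, an S6 kinase gene, at -0.16 and Myc at 0.21 (unadjusted p = 0.0218 and 0.0346).

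Markers of other cell types varied between cortices. The summed level of 5 choroid plexus markers ran from 10.6 to 472 CPM in controls and from 8.15 to 333 CPM in Phf6-/Y cortices, and that of 5 meningeal fibroblast markers from 14.0 to 267 and from 11.9 to 518 CPM. The 7 endothelial and mural markers were at 198 to 233 CPM in controls and 173 to 358 CPM in deleted cortices. The 10 progenitor markers were at 2529 to 2747 CPM in controls and 2343 to 2945 CPM in deleted cortices, the 8 neuronal markers at 6160.0 to 6680.1 and 4893 to 6929 CPM, and the 6 interneuron markers at 582 to 761 and 634 to 706 CPM. Erythroid markers (5 of 6 in the table) were at 264 to 397 and 177 to 467 CPM and the 6 microglial markers at 31.9 to 51.1 and 29.2 to 59.7 CPM. The ranges of the genotypes overlapped for every list, and every marker in the table was above 0 in at least 1 cortex of each group. By single markers, 7 of 8 neuronal genes were negative in Phf6-/Y cortices (median -0.12, 2 lower at an unadjusted p below 0.05), 5 of 6 interneuron genes (median 0.12, 2 higher) and 5 of 5 meningeal genes (median 0.97, 0 at that p) were positive, and 7 of 10 progenitor genes were negative (median -0.02). Of the endothelial and mural genes 6 of 7 were positive (median 0.25), and of the choroid plexus genes 4 of 5 were negative (median -1.21), with 0 of either at that p. Erythroid genes were negative for 4 of 5 tested (median -0.15) and microglial genes for 4 of 6 (median -0.02).

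In neuron cultures 7 of 10 progenitor genes were negative (median -0.14, 3 lower at an unadjusted p below 0.05), and 5 of 8 neuronal genes positive (median 0.06). The choroid plexus gene Ttr was higher after deletion, with a log2 fold change of 2.84 (SE 0.27, edgeR FDR = 0.000188), and the summed level of the 5 choroid plexus markers was 1.97 to 3.55 CPM in control and 4.97 to 24.0 CPM in deleted cultures. Endothelial and mural genes were positive for 3 of 4 tested, with Kdr at an unadjusted p below 0.05 (0.76), and their summed level was 6.60 to 8.33 CPM in control and 8.65 to 11.97 CPM in deleted cultures. Meningeal genes were positive for 4 of 5 (median 0.43), with Dcn at that p (0.85). The choroid plexus and the endothelial sums did not overlap between the genotypes of the cultures. In both tissues the part of these markers in the ribosomal protein values was not tested.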

How the data were processed

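RNA was sequenced from 8 E15.5 cortices and 7 E16.5 neuron cultures. The authors made stranded libraries from polyA RNA, aligned paired reads to mm10 (Rsubread), summed them over each gene's RefSeq exons by featureCounts, and deposited unnormalised counts, 1 column per library, with the counted length of each gene. The strand setting and the handling of multi-mapping reads are not given in the sources used here. The 15 sample files equalled their columns of the series table, and 0 columns were left unused.

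Of 27179 rows, 1029 had no gene identifier (0.349% to 0.605% of counts) and were left out. After unmatched identifiers (875), pseudogenes (835), rRNA genes (35) and predicted genes (1273) were removed, 23132 genes remained. Genes were filtered with filterByExpr and scaled by TMM within each comparison. Genotype was tested in each tissue with edgeR 4.0.16 (R 4.3.3) by its robust quasi-likelihood F test. Litter entered each model, as in the study, and the Benjamini-Hochberg adjustment covered every gene tested. Control tissues were compared without litter, which is nested in tissue, and the interaction was fitted over all libraries. Alternatives included limma-trend (limma 3.58.1) and DESeq2 1.42.0, and the fits were tested on simulated data. Printed CPM and RPKM share 1 TMM scaling over 15 libraries, and within-litter differences used a pseudocount of 0.5 CPM. The labels give each embryo a litter. In the genotype comparisons, p-values measure how embryos differ beyond the averages of litter and genotype. In neurons, where litters with both genotypes held 1 culture of each, this is how the genotype difference varied between litters. Each library in the comparison of control tissues came from its own litter, so its p-values measure spread between embryos of different litters.

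Members were taken by name. Members with values in the text were the 5 of lowest p in each genotype comparison and any called there, the 3 highest and 3 lowest by RPKM, the 5 of lowest p in each direction between control tissues, and fixed lists of members with special roles and of duplicated pairs. Rpl36, Rpl31, Rps24, Rpl13a and other members singled out by a count were named after their values were seen. The members and the gene lists were chosen with earlier results of these data known. Lists of genes beside the members are given by counts and medians, with values for a few genes. These few were singled out by their low p or their direction, that is by their result. GC content was available for 90.33% of genes and for all 84 members. Exact shared windows were computed from GENCODE M21 transcripts on GRCm38, the build of mm10, and promoter sequences came from RefSeq GRCm38.p6. The many near-identical copies of these genes make single levels uncertain. Some members and list genes are counted but not reported here by name. Protein sequences and exon coverage were not analysed here.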

Additional observations from a re-analysis of the deposited data

How the results depend on the processing

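In the cortex 0 members passed the FDR threshold under every alternative, replicates left out included, and the members' median stayed between -0.15 and -0.08 with 1 library left out. The count lower at an unadjusted p below 0.05 was 16 (all genes 4.77%) and 5 with the length trend removed (all genes 5.08%). With 1 library left out it ran from 6 to 20. It was 6 without control 2 (all genes 4.02%) and without deleted cortex 2 (2.46%), and 20 without deleted cortex 4 (5.50%). Without the litter term, that is with no paired block, the count lower was 15 (all genes 3.21%), with 0 at FDR below 0.05. In neurons the FDR count was 0, but 2 with no filter on low counts, both lower (all genes 0.659%). It was 0 to 12 with 1 library left out. The 12, without the control of litter 6, were 11 lower (all genes 1.13%) and 1 higher (all genes 2.38%). At an unadjusted p below 0.05 there were 5 members, 4 lower (all genes 4.46%) and 1 higher (all genes 5.87%). The count lower at that p became 11 with no filter (all genes 4.46%), 7 with the length trend removed (5.95%) and 0 without the litter block (2.80%). With 1 library left out it ran from 0 without the deleted culture of litter 4 (all genes 4.08%) to 26 without the control of litter 6 (6.03%). The median ran from -0.127 to 0.0373 with 1 library left out. For the difference between tissues the FDR count was 0 throughout. At an unadjusted p below 0.05 there were 6 members, all higher in neurons, beside 341 higher of all 15001 genes. There were 3 higher with the length trend removed (all genes 353 of 15001) and 7 without the litter block (274 of 15001). With 1 library left out the count higher ran from 2 to 9. It was 2 without the control of litter 6 (298 of 15226 genes) and 9 without that of litter 4 (355 of 15219).

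Between control tissues the 23 calls became 13 with the GC trend removed and 13 to 22 with 1 library left out. They were 13 without cortex control 1 (all genes 3038 higher and 3272 lower of 14577). Without neuron control 1 they were 22 (all genes 3386 higher and 3735 lower of 14631). With the GC trend removed 11 were lower and 2 higher, beside 3795 lower and 3207 higher of 14320 genes. Rpl28, at -0.55 in the controls, was at 0.0534 when the deleted libraries took their place. The cause of these changes between fits was not tested. Medians of the genotype comparisons under other scalings, limma-trend and DESeq2 moved by less than the spread of the libraries. Depth limits the least counted members, Rpl39 with 8 reads in a library, and no fold is given for Rpl3l, Rpl10l and Rpl39l. Single libraries far from their group could be looked for in the deleted groups only, since groups of 3 controls are too small for that rule.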
